A study of Mus musculus with 17 samples.

Results

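The 10 genes described here are marker genes of macrophages and Langerhans cells: Cd207, Itgax, Cd209a, Adgre1, Csf1r, Cd68, Cd163, Mrc1, Itgam and Lyz2. They were chosen by name and matched to array probes through the RefSeq transcript that each probe was designed to. Of the 10, 9 had a matched probe, with 15 probes among them, and 8 were tested among 21384 genes. A gene was tested where a probe was well above background in the tissue channel on at least 4 of the 17 arrays. Cd163 did not reach this, and Cd68, for which no probe was matched, is not analysed here.

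Langerhans cells are antigen-presenting cells that live within stratified squamous epithelium, where they extend processes between keratinocytes and carry antigen to lymph nodes. They develop from monocyte-like precursors and depend on the receptor Csf1r, which they engage through the keratinocyte cytokine interleukin-34. Macrophages lie mostly in the connective tissue below the epithelium, take up dead cells and debris, and are replaced in part by blood monocytes that carry the chemokine receptor Ccr2. The forestomach is the squamous-lined part of the rodent stomach, and benzo(a)pyrene (BaP), a polycyclic aromatic hydrocarbon that binds the aryl hydrocarbon receptor and is converted to DNA-binding metabolites, causes tumours there.

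The forestomachs came from male MutaTMMouse animals, a transgenic mutation-reporter strain, aged 24 to 26 weeks. Control mice, numbered 1 to 5, were gavaged with olive oil alone for 28 days. The others had BaP in the same oil each day, at 25 mg/kg for replicates 6 to 9, at 50 mg/kg for 12 to 15 and at 75 mg/kg for 17 to 20. The stomachs were removed 72 hours after dosing ended, so all groups share the gavage, the oil and the recovery interval, and each array holds a section of whole forestomach and not sorted cells. Each array compared tissue RNA (Cy5) with Universal Mouse Reference RNA from 11 mouse cell lines (Cy3), so that every value below is a log2 ratio of tissue over that mixture and can be compared between arrays but not between probes.

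The share of probes well above background in Cy5 ran between 39.9% and 50.7%, over a median local background of 64 to 74.5. The 7 tested squamous epithelial genes, Krt5, Krt14, Krt4, Krt13, Krt15, Trp63 and Dsg3, averaged 3.40 to 4.17 above the mixture on every array, which fits the labelled tissue. The 8 tested genes of glandular stomach varied more, with a median array at 0.60 in control, 1.72 at 25 mg/kg, 1.19 at 50 mg/kg and 1.92 at 75 mg/kg and a single array at 5.70 at 25 mg/kg, and 0 of them passed the test at any dose. The number of arrays, 5 in control and 4 at each dose, limits the precision of every difference.

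Control replicate 2 stood apart from the other controls in its leukocyte genes. The mean of 8 pan-leukocyte genes was 0.34 on this array and -2.55 to -1.85 on the other 4 control arrays, and that of 3 B and plasma cell genes was 1.33 against -3.76 to -2.43. Its mean of 20 other dendritic and Langerhans cell genes was 0.96 against -0.45 to -0.16, that of 26 other monocyte and macrophage genes 1.11 against 0.04 to 0.28, and that of 8 neutrophil genes 2.28 against 0.25 to 0.67. The squamous epithelial mean, 3.79, lay within the range of the other controls. Results are therefore given with this array and without it. It was singled out by values of these same data, and was the highest control for Itgax, Adgre1, Csf1r, Mrc1 and Lyz2. Leaving out the highest control raises the difference of such a gene, so calls without this array are descriptions only.

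**Figure D1:**
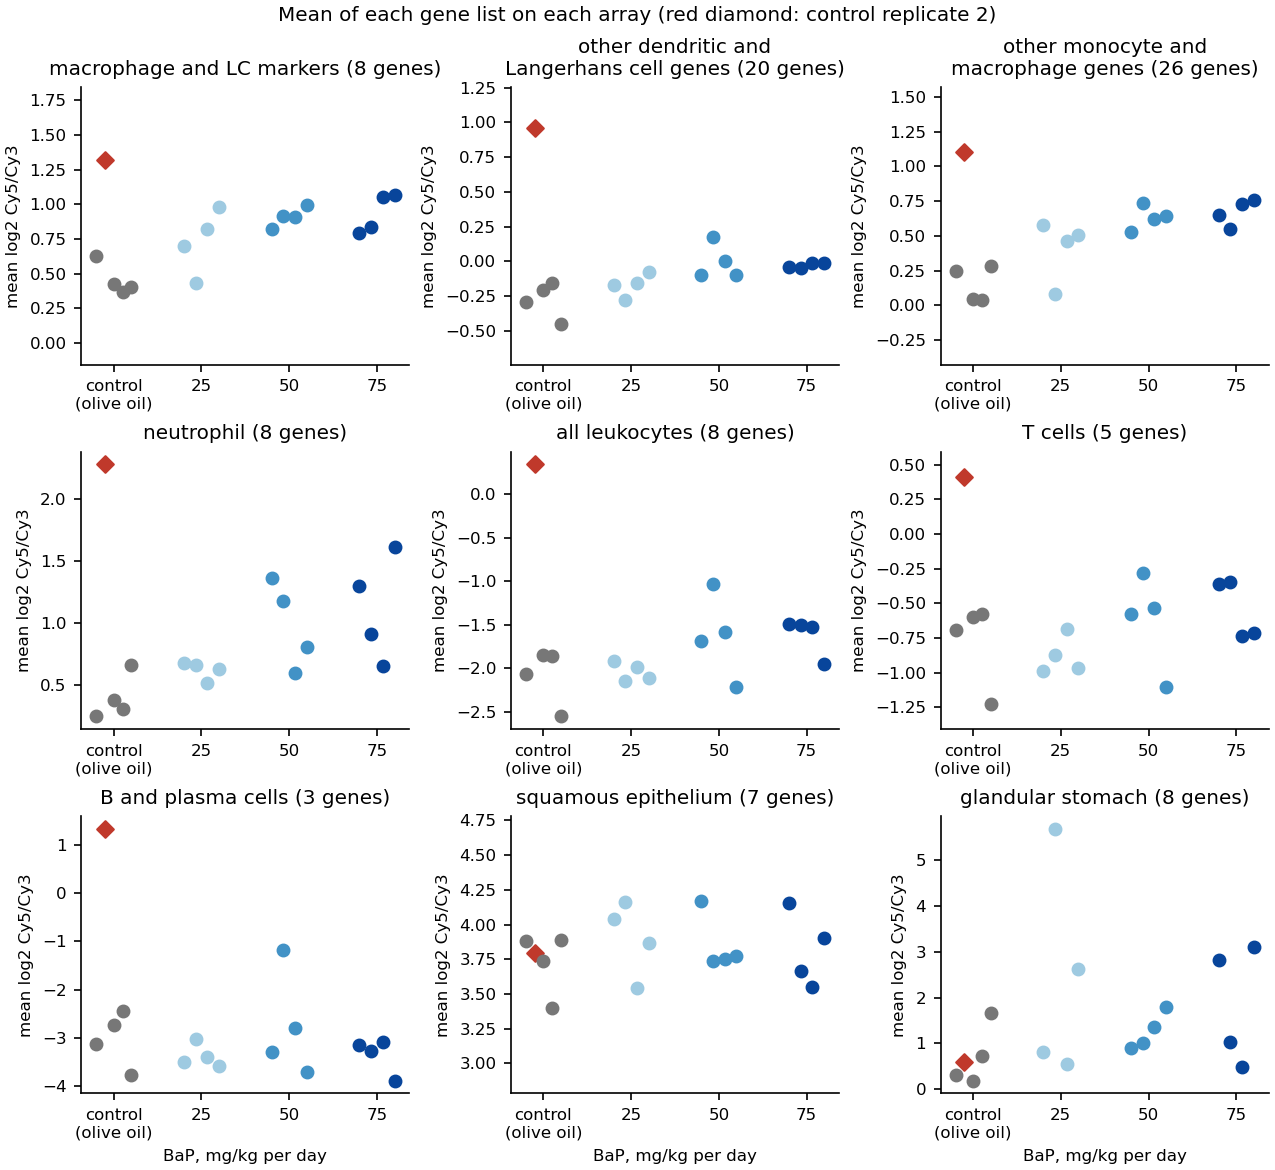
Mean log2 ratio of Cy5 over Cy3 (vertical axes, scales differ) of 9 gene lists on each of the 17 arrays, by BaP dose in mg/kg per day. Control replicate 2, the red diamond, lies above the other control arrays in the macrophage and Langerhans cell markers and in every leukocyte list shown, and among them in squamous epithelium (3.79).

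With all arrays, Cd207 was the tested marker past the threshold at 75 mg/kg, a call that was lost when dim probes were kept in the fit. The gene encodes langerin, the C-type lectin that forms the Birbeck granules of Langerhans cells and is used as a marker of them. Which cells of the section carried it was not tested. Its log2 ratios were 0.25, 0.16, 0.04, 0.33 and 0.29 in control mice, -0.01, 0.19, 0.73 and 1.14 at 25 mg/kg, 0.71, 0.65, 0.51 and 0.90 at 50 mg/kg, and 0.93, 1.05, 0.86 and 1.94 at 75 mg/kg. Every array at 50 and at 75 mg/kg lay above every control, while the arrays at 25 mg/kg overlapped the controls.

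The Cd207 probe cleared background in 0 of 5 control mice, in 3 of 4 mice at 25 mg/kg and in 4 of 4 at both 50 and 75 mg/kg. In the scanner's own units its Cy5 signal was 114 to 229 at 75 mg/kg, against 66 to 81.5 on control arrays over a local background of 63 to 69. The control level is thus near background and uncertain. In the Cy5 channel, open to dye bias, the measured mean log2 signal was 7.09 at 75 mg/kg and 6.12 in control. With control values raised to the lowest that cleared background on their array, over all probes, the difference was 1.92-fold. That floor is not the limit of this probe, so the value is no lower bound. On the ratio scale, fits without single arrays gave log2 differences down to 0.73.

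On the ratio scale Cd207 averaged 1.19 ± 0.50 at 75 mg/kg (SD, n = 4) and 0.21 ± 0.12 in control (SD, n = 5). The measured difference was 0.98 ± 0.22 (SE; limma over all genes, adjusted p = 0.0432). Cd207 entered the test only through treated mice, since no control array cleared background, and nothing is read from its call or from counts that hold it. With dim probes kept, the adjusted p was 0.0604. At 75 mg/kg 1 of the 8 tested markers passed, where 1.10% of all genes did. The differences of Cd207 at 25 and 50 mg/kg, 0.30 ± 0.22 and 0.48 ± 0.22, did not pass (limma, adjusted p = 0.999 and 0.731). A straight line through all 4 dose levels gave a slope of 0.31 ± 0.07 per 25 mg/kg (limma, adjusted p = 0.0239, and 0.0342 with dim probes kept), again against controls near background. It was 1 of 8 markers past the threshold for the slope, where 1.35% of all genes were.

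The call at 75 mg/kg lay close to the threshold. It held in 5 of the 17 fits that left out 1 array. The adjusted p was 0.0913, 0.0672, 0.111, 0.0817 and 0.0559 without control replicates 1 to 5 in turn, and 0.0695, 0.0947 and 0.135 when replicate 17, 18 or 20 at 75 mg/kg was left out. It was 0.0515 without replicate 8 at 25 mg/kg and 0.0584, 0.0554 and 0.0592 without replicates 12, 13 and 14 at 50 mg/kg, which enter through the spread shared by all groups. The difference itself stayed between 0.73 and 1.09 in these fits, lowest without replicate 20. The slope lost its call when control replicate 3 was left out, or replicate 18 or 20 at 75 mg/kg (adjusted p = 0.0593, 0.0530 and 0.0526). Of 16 processing alternatives 4 lost the call at 75 mg/kg: array weights (0.94, adjusted p = 0.0553), median centring (0.74, adjusted p = 0.215), no filter on dim probes (0.0604) and a fit of only the 2 groups (0.0611). Median centring also lost the slope (0.24, adjusted p = 0.121). With the slide as a block, the difference was 0.94 (adjusted p = 0.00704), and with Agilent's processed signals, where control spots lie near 0 after background subtraction, it was 3.61 (adjusted p = 0.0196).

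**Figure D2:**
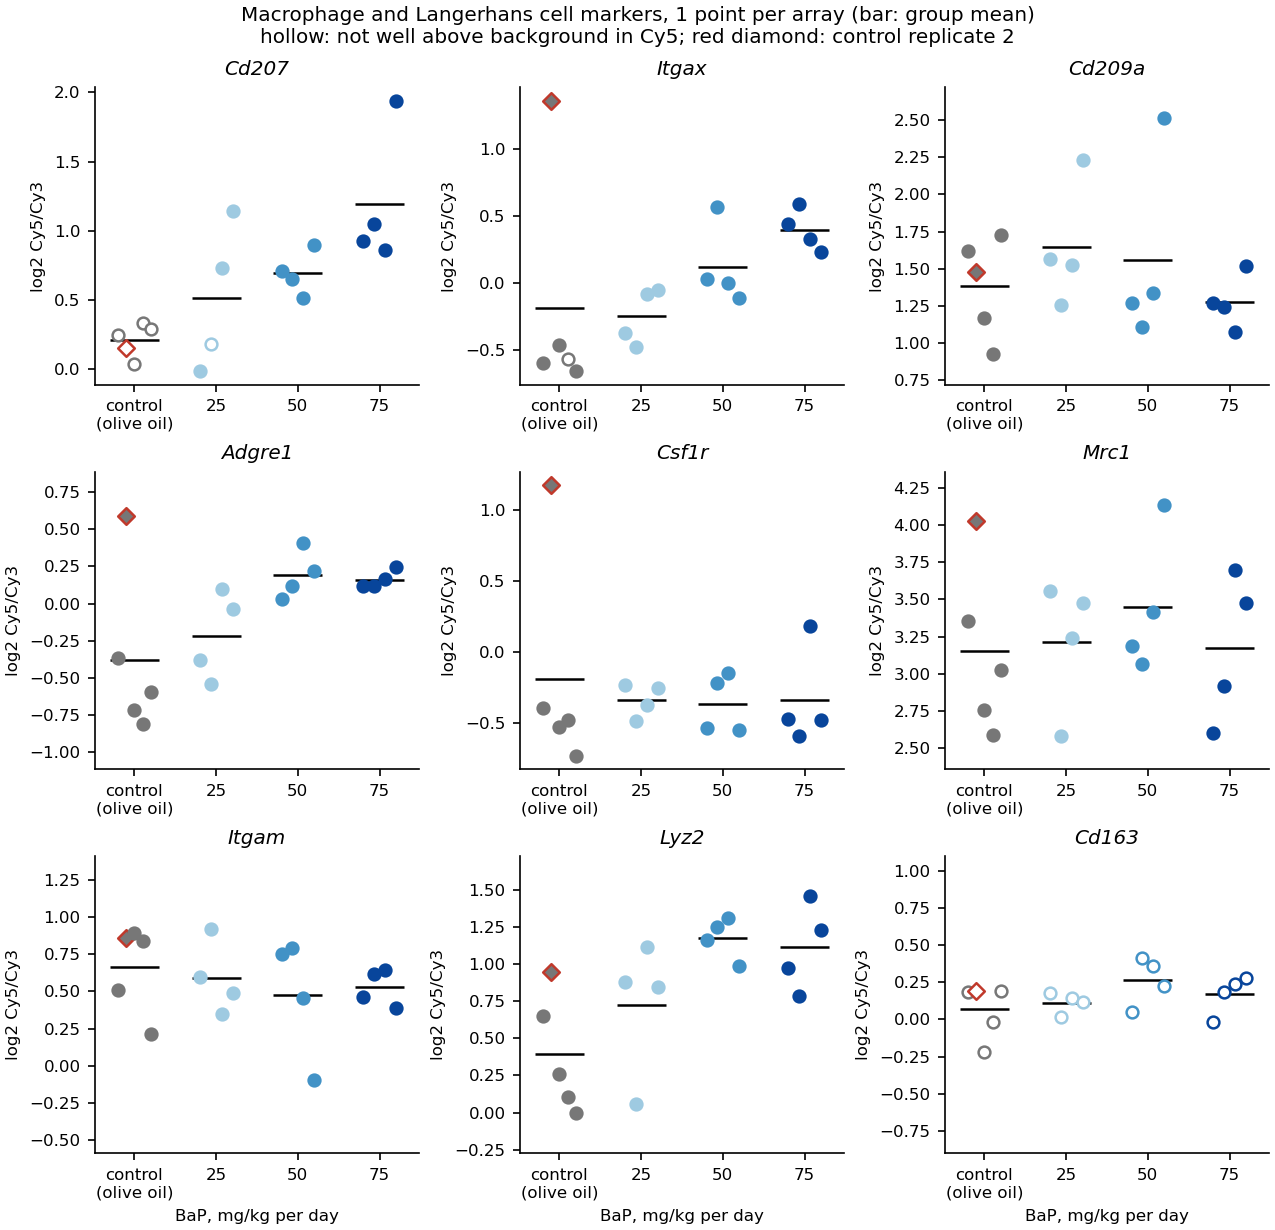
Log2 ratio of Cy5 over Cy3 (vertical axes, scales differ) of the 8 tested markers and Cd163 on each of the 17 arrays by BaP dose in mg/kg per day, with the group mean as a bar. Cd207 is hollow, not well above background, on all 5 control arrays and filled on all arrays at 50 and 75 mg/kg, and control replicate 2 is the top point of Itgax (1.36), Adgre1 (0.59) and Csf1r (1.17).

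The 250 bases before the transcription start are shown for Cd207, Itgax and Lyz2, the markers with a table entry that passed at least 1 test with or without control replicate 2. They are RefSeq's, in build GRCm38.p6, 5′ to 3′ in the direction of the gene, at chr6:83677858-83678107 (minus strand) for Cd207, chr7:128129300-128129549 (plus strand) for Itgax and chr10:117282273-117282522 (minus strand) for Lyz2. Capitals mark GAGGAA, the core bound by the myeloid factor PU.1, or GCGTG, the core bound by the aryl hydrocarbon receptor, on either strand.
Cd207: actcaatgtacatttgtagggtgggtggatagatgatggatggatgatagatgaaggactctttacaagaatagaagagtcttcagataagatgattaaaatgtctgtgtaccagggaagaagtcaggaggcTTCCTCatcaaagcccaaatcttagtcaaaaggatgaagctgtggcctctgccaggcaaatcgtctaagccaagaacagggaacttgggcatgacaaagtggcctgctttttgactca
Itgax: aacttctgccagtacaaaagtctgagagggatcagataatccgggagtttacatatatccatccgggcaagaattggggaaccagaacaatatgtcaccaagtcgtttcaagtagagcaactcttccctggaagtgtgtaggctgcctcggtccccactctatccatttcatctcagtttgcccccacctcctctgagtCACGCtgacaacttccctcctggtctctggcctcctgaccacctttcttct
Lyz2: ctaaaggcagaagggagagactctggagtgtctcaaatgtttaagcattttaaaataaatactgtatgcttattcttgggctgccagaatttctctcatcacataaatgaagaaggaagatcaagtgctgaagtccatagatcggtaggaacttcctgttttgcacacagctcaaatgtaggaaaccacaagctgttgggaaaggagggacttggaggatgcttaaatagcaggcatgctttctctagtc

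Cd207 holds 1 copy of GAGGAA, read on the other strand as TTCCTC, and Itgax holds 1 copy of GCGTG, read on the other strand as CACGC, while neither motif is in the Lyz2 window. GAGGAA is in 4 of the 8 marker promoters in the table (Cd207, Cd68, Itgam and Mrc1) and in 23.3% of all 32851 promoter windows of this length. GCGTG is in 1 of 8 and in 28.2% of all windows. The 2 motifs share no bases. These matches describe the windows and show no binding.

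Itgax encodes the integrin CD11c, carried by dendritic cells, Langerhans cells and some macrophages. Its log2 ratios were -0.59, 1.36, -0.46, -0.56 and -0.66 in control mice, -0.37, -0.48, -0.08 and -0.05 at 25 mg/kg, 0.03, 0.57, 0.00 and -0.11 at 50 mg/kg, and 0.44, 0.59, 0.33 and 0.23 at 75 mg/kg. Control replicate 2 was the highest of all 17 arrays, and the other 4 controls lay below every array at 50 and 75 mg/kg. With all arrays the difference at 75 mg/kg was 0.58 ± 0.31 (limma, adjusted p = 0.563).

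Without control replicate 2, its highest control, Itgax differed by 0.97 ± 0.14 at 75 mg/kg (limma, adjusted p = 0.00267). The mean was then 0.40 ± 0.15 at 75 mg/kg (SD, n = 4) and -0.57 ± 0.08 in control (SD, n = 4). With that array the control SD was 0.87, and the array was singled out by values of such genes in these data. The Itgax slope without it was 0.33 ± 0.04 per 25 mg/kg (limma, adjusted p = 0.000413). At 50 mg/kg its difference was 0.69 ± 0.14 without that array (limma, adjusted p = 0.0770). Cd207 did not share the high value of control replicate 2, which was 0.07 below the mean of the other controls for Cd207 (difference -0.07) and 1.93 above it for Itgax.

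Cd209a encodes a C-type lectin of the DC-SIGN family, found on dermal and other monocyte-related dendritic cells. Its log2 ratios were 1.62, 1.48, 1.17, 0.93 and 1.73 in control mice, 1.57, 1.26, 1.52 and 2.23 at 25 mg/kg, 1.27, 1.11, 1.34 and 2.51 at 50 mg/kg, and 1.27, 1.24, 1.08 and 1.52 at 75 mg/kg. The groups overlapped throughout, with single high arrays at 25 and 50 mg/kg. The difference at 75 mg/kg was -0.11 ± 0.26 (limma, adjusted p = 0.931; 95% confidence interval -0.65 to 0.44). With Agilent's processed signals its sign turned, to 0.64, beyond that interval, and a second Cd209a probe cleared background on none of the 17 arrays.

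Adgre1 encodes the adhesion receptor that the F4/80 antibody sees on mouse macrophages and Langerhans cells. Its log2 ratios were -0.37, 0.59, -0.71, -0.81 and -0.59 in control mice, -0.38, -0.54, 0.10 and -0.04 at 25 mg/kg, 0.03, 0.12, 0.41 and 0.22 at 50 mg/kg, and 0.12, 0.12, 0.16 and 0.25 at 75 mg/kg. Control replicate 2 was again the highest of 17, and the other controls lay below all arrays at 50 and 75 mg/kg. With all arrays the difference at 75 mg/kg was 0.54 ± 0.22 (limma, adjusted p = 0.394).

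Without control replicate 2, again the highest control, Adgre1 differed by 0.78 ± 0.14 at 75 mg/kg and by 0.81 ± 0.14 at 50 mg/kg (limma, adjusted p = 0.00693 and 0.0284). Its slope was then 0.28 ± 0.05 per 25 mg/kg (limma, adjusted p = 0.00367). A second, dimmer Adgre1 probe differed less at 75 mg/kg, by 0.19 ± 0.14 with all arrays and 0.31 ± 0.12 without that control, and passed in neither fit over all kept probes (limma, adjusted p = 0.751 and 0.392). The calls of Adgre1 without that control thus rest on 1 of its 2 probes, though both probes read higher at 75 mg/kg than in control.

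Csf1r encodes the receptor for colony-stimulating factor 1 and interleukin-34 on which both macrophages and Langerhans cells depend. The brightest of its 3 probes read -0.40, 1.17, -0.53, -0.48 and -0.73 in control mice, -0.24, -0.49, -0.38 and -0.26 at 25 mg/kg, -0.54, -0.22, -0.15 and -0.55 at 50 mg/kg, and -0.47, -0.60, 0.18 and -0.48 at 75 mg/kg. The treated groups lay among the controls, with control replicate 2 above every other array. The difference at 75 mg/kg was -0.15 ± 0.29 with all arrays and 0.19 ± 0.15 without control replicate 2 (limma, adjusted p = 0.912 and 0.759), so that its sign turned with 1 array, and it was 0.23 with median centring in place of loess. The other 2 probes differed by -0.19 ± 0.16 and -0.21 ± 0.13 with all arrays and by -0.03 and -0.21 without that control.

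Mrc1 encodes the mannose receptor CD206, a mark of resident tissue macrophages. Its log2 ratios were 3.36, 4.03, 2.75, 2.59 and 3.02 in control mice, 3.55, 2.58, 3.24 and 3.48 at 25 mg/kg, 3.19, 3.06, 3.42 and 4.13 at 50 mg/kg, and 2.60, 2.92, 3.70 and 3.48 at 75 mg/kg. All groups covered much the same range. The difference at 75 mg/kg was 0.02 ± 0.31 (limma, adjusted p = 0.987; 95% confidence interval -0.62 to 0.67) and 0.24 ± 0.28 without control replicate 2 (adjusted p = 0.861), and its sign turned in 6 of the alternatives tried.

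Cd163 encodes the scavenger receptor for haemoglobin on resident macrophages. Its 1 matched probe cleared background on none of the 17 arrays, with a Cy5 signal of 61 to 75 on control arrays, 70 to 78 at 25 mg/kg, 71 to 82 at 50 mg/kg and 72 to 80 at 75 mg/kg. No fold is given for it. When dim probes were kept in the fit, its ratio at 75 mg/kg differed by 0.10 ± 0.10 (limma, adjusted p = 0.811).

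Itgam encodes the integrin CD11b of monocytes, macrophages and granulocytes. The brightest of its 3 probes read 0.51, 0.86, 0.89, 0.84 and 0.21 in control mice, 0.60, 0.92, 0.35 and 0.49 at 25 mg/kg, 0.75, 0.79, 0.46 and -0.10 at 50 mg/kg, and 0.46, 0.62, 0.64 and 0.39 at 75 mg/kg. The groups overlapped at every dose. The difference at 75 mg/kg was -0.14 ± 0.18 (limma, adjusted p = 0.863; 95% confidence interval -0.52 to 0.25), and the other 2 probes differed by -0.28 ± 0.10 and 0.07 ± 0.09 without passing (limma over all kept probes, adjusted p = 0.288 and 0.851).

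Lyz2 encodes the lysozyme of myeloid cells, made by macrophages, monocytes and neutrophils. Its log2 ratios were 0.65, 0.95, 0.26, 0.10 and -0.01 in control mice, 0.88, 0.05, 1.11 and 0.84 at 25 mg/kg, 1.16, 1.25, 1.31 and 0.99 at 50 mg/kg, and 0.98, 0.78, 1.46 and 1.23 at 75 mg/kg. All arrays at 50 mg/kg and 3 of 4 at 75 mg/kg lay above every control. The differences of 0.78 ± 0.22 at 50 mg/kg and 0.72 ± 0.22 at 75 mg/kg did not pass (limma, adjusted p = 0.337 and 0.172), nor did the slope of 0.27 ± 0.07 per 25 mg/kg (limma, adjusted p = 0.0655).

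Without control replicate 2, again the highest control, the Lyz2 difference at 75 mg/kg was 0.86 ± 0.21 (limma, adjusted p = 0.0515). The Lyz2 slope was then 0.30 ± 0.07 per 25 mg/kg and passed (limma, adjusted p = 0.0230). The slope also passed when replicate 18 at 75 mg/kg was left out (0.31, adjusted p = 0.0472). Lyz1, a near-identical copy of the gene, differed by 0.68 at 75 mg/kg (limma, adjusted p = 0.232), and how far the probes of the copies read each other's RNA was not tested. Neutrophil genes are given below, since neutrophils also make Lyz2.

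**Figure D3:**
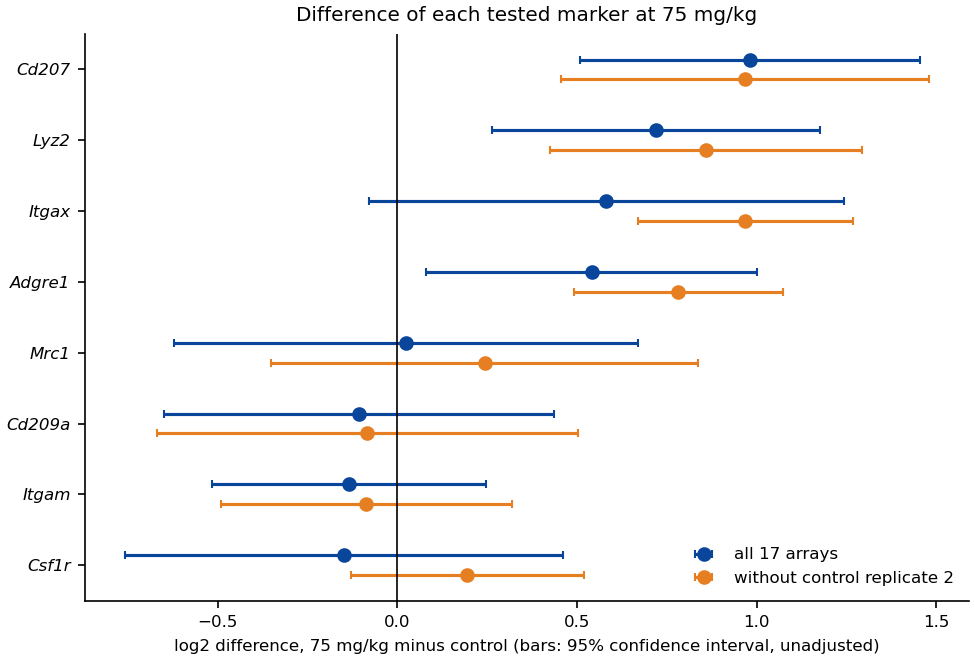
Log2 difference of each tested marker, 75 mg/kg minus control (horizontal axis), with its unadjusted 95% confidence interval from limma, for all 17 arrays (blue) and without control replicate 2 (orange). Cd207 keeps its place at 0.98 and 0.97, Itgax moves to 0.97 without that array against 0.58 with it, and Mrc1, Cd209a, Itgam and Csf1r lie around 0 in both.

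Over the 8 tested markers the median difference at 75 mg/kg was 0.28, where that of all genes was -0.01, and 5 of the 8 were positive. Treated and control arrays did not overlap for 1 of 8, Cd207, with treated higher, where this held for 1.99% of all genes. Since Cd207 entered the test only through treated mice, nothing is read from this count. At 25 and 50 mg/kg 0 of 8 passed, where 0.0140% and 0.0468% of all genes did, and limma's unadjusted p was under 0.05 for 0 and 3 of the 8, where it was for 3.26% and 6.81% of all genes. Between 75 and 25 mg/kg 0 of 8 passed, where 0.0608% of all genes did, and 1 of the 8 had an unadjusted p under 0.05, where 4.74% of all genes did. The 3 at 50 mg/kg were Lyz2, Adgre1 and Cd207, and the 1 between 75 and 25 mg/kg was Cd207. Nothing is read from the part of Cd207 in these counts either.

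Without control replicate 2 the median at 75 mg/kg was 0.51 and 2 of the 8 passed, Itgax and Adgre1, where 1.35% of all genes did. Treated and control arrays then did not overlap for 4 of 8, Cd207, Itgax, Adgre1 and Lyz2, where this held for 3.37% of all genes. At 50 mg/kg 1 of 8 passed, Adgre1, against 0.131% of all genes. The slope passed for 4 of 8, Cd207, Itgax, Adgre1 and Lyz2, against 1.88% of all genes. The non-overlap and slope counts hold Cd207, which entered the test only through treated mice, and nothing is read from its part in them. In whole tissue, more cells of a type and more RNA per cell cannot be told apart, for these genes or for any other named here.

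**Figure D4:**
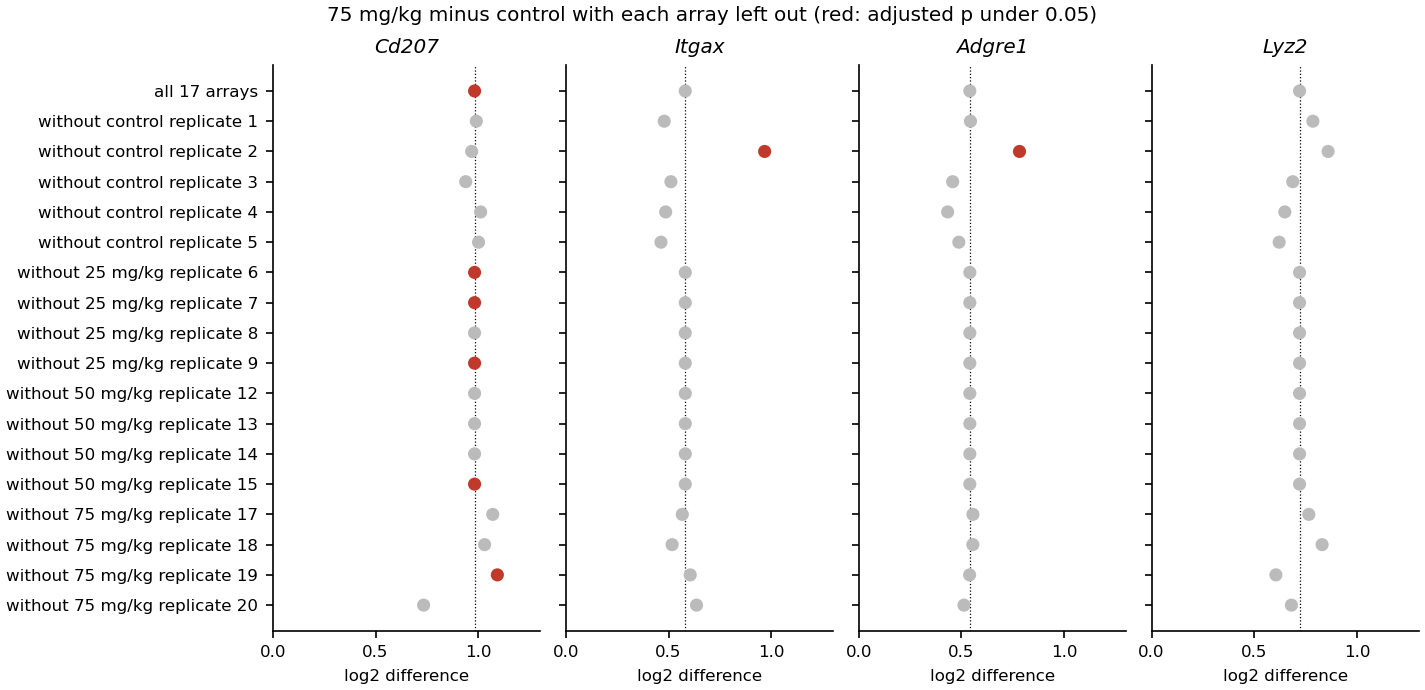
Log2 difference, 75 mg/kg minus control (horizontal axis), of Cd207, Itgax, Adgre1 and Lyz2 with all arrays and with each array left out (rows), red where limma's adjusted p was under 0.05. Itgax and Adgre1 pass in 1 fit each, that without control replicate 2, and Cd207 stays between 0.73 and 1.09 throughout.

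The 3 slides, each scanned in 1 session, held arrays of every group. Within the slides the difference at 75 mg/kg was 0.73, 0.77 and 1.65 for Cd207, 0.18, 0.94 and 1.24 for Lyz2, 0.06, 0.97 and 0.89 for Itgax, and 0.01, 0.90 and 0.84 for Adgre1. Slide 1, the first value of each, holds control replicate 2. For Csf1r the differences were -0.86, 0.30 and 0.25, and for Mrc1 -1.09, 0.64 and 0.45, so that these genes changed sign between the slide with that control and the other slides. With slide as a block, the differences of the 8 markers are estimated from arrays scanned together, and 1 of 8, Cd207, passed at 75 mg/kg, where 1.98% of all genes did. With slide as a block and without control replicate 2, a fit chosen after seeing the data, 4 of 8 passed at 75 mg/kg (Cd207, Itgax, Adgre1 and Lyz2), where 2.57% of all genes did. These slide-block counts hold Cd207, which entered the test only through treated mice, and nothing is read from its part in them.

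Among other genes of monocytes and macrophages, 26 of a list of 30 were tested and 2 rose at 75 mg/kg, where 1.10% of all genes passed, with a list median of 0.38 and 23 of 26 positive. Ccr2, the receptor through which monocytes leave the marrow and enter tissue, had log2 ratios of 1.36, 1.67, 1.73 and 1.40 at 75 mg/kg, against 0.42, 0.84, 0.86, 0.71 and 0.70 in control. Every array at 75 mg/kg lay above every control, as for 1.99% of all genes, and Ccr2 rose by 0.84 ± 0.18 (limma, adjusted p = 0.0262).

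The call of Ccr2 also depended on single arrays. It missed the threshold when any 1 of replicates 17, 18, 19 and 20 at 75 mg/kg was left out (adjusted p = 0.0523, 0.102, 0.0747 and 0.0569) and without control replicates 1 and 4 (0.0785 and 0.0652). It also missed it in 2 of 16 processing alternatives, Cy5 alone (0.65, adjusted p = 0.107) and Agilent's processed signals (1.78, adjusted p = 0.137). Without control replicate 2 the list had 6 of 26 genes that rose, where 1.35% of all genes passed, and a median of 0.53. Among them, beside Ccr2, were Aif1, Clec4n, Ctss and Cx3cr1, named after their values were seen. Aif1, the macrophage protein Iba1, differed by 1.50 without that array and by 1.01 with it (limma, adjusted p = 0.00110 and 0.381).

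Of 24 other dendritic and Langerhans cell genes, 20 were tested and 0 rose or fell at any dose, with a median of -0.01 at 75 mg/kg. Clec10a, a galactose-type lectin of dermal dendritic cells and macrophages, had log2 ratios of 2.71, 2.71, 3.35 and 3.24 at 75 mg/kg, against 1.70, 2.17, 1.73, 2.03 and 2.45 in control. All arrays at 75 mg/kg were above all controls, as for 1.99% of all genes, with a difference of 0.99 ± 0.26 that did not pass (limma, adjusted p = 0.0906). Its slope along the dose passed with all arrays, as 1 of the 20, where 1.35% of all genes passed. Without control replicate 2 the slope passed for 3 of the 20, where 1.88% of all genes passed, and Clec10a was not among them. Ccl17, a chemokine of mature dendritic and Langerhans cells, differed by 0.44 ± 0.17 (limma, adjusted p = 0.369) and its probe cleared background in no control mouse. Without control replicate 2, Cd86, a costimulatory ligand named after its values were seen, differed by 0.52 (limma, adjusted p = 0.0202), against 0.05 with all arrays, and the list median was 0.22. Limma's unadjusted p at 75 mg/kg was under 0.05 for 2 of the 20, Clec10a and Ccl17, a share near the 10.1% of all genes. Ccl17 entered the test only through treated mice, and nothing is read from its part in this count.

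Among 13 ligands and growth factors of these cells, 7 were tested and 0 passed against control at any dose. Il34, the Csf1r ligand that maintains Langerhans cells, had log2 ratios of 1.31, 1.11, 0.81 and 1.48 at 75 mg/kg, against 0.64, 0.58, 0.47, 0.56 and 0.91 in control. The arrays overlapped at a single control, and the difference of 0.54 ± 0.15 did not pass (limma, adjusted p = 0.130). Ccl7, a ligand of Ccr2, differed by 0.85 ± 0.21 (limma, adjusted p = 0.0684), and its probe cleared background in 3 of 5 control mice. The slope of Ccl7 along the dose passed with all arrays, as 1 of the 7, where 1.35% of all genes passed. It also passed without control replicate 2, where 1.88% of all genes did.

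Of 14 genes of macrophage activation states, 8 were tested and 2 rose at 75 mg/kg, where 1.10% of all genes passed, while the list median was 0.06. Arg1, the arginase of alternatively activated macrophages, also made by other cells, had log2 ratios of 4.76, 3.66, 4.39 and 4.78 at 75 mg/kg, against 2.83, 2.43, 1.49, 1.61 and 3.13 in control. It rose by 2.09 ± 0.40 (limma, adjusted p = 0.0148), and missed the threshold when replicate 17 or 20 at 75 mg/kg was left out (0.0655 and 0.0631) and with Agilent's processed signals (1.02, adjusted p = 0.429). Cd274, the inhibitory ligand PD-L1, read -0.34, -0.37, -0.30 and -0.08 at 75 mg/kg, against -1.11, -0.67, -0.84, -0.75 and -0.93 in control.

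The 75 mg/kg and control arrays of Cd274 did not overlap, as for 1.99% of all genes with treated higher, and it rose by 0.59 ± 0.13 (limma, adjusted p = 0.0403). Its call held in 5 of the 17 fits without 1 array. The adjusted p was 0.110, 0.0838, 0.0698 and 0.0655 without control replicates 1, 3, 4 and 5, and 0.0911, 0.0854, 0.0742 and 0.152 without replicates 17 to 20 in turn. It was 0.0580 and 0.0503 without replicates 6 and 7 at 25 mg/kg, and 0.0517 and 0.0597 without replicates 12 and 14 at 50 mg/kg. Of 16 processing alternatives 3 lost it: Cy5 alone (0.52, adjusted p = 0.236), median centring (0.68, adjusted p = 0.0515) and no filter on dim probes (adjusted p = 0.0502). Its difference was 1.40 with Agilent's processed signals (adjusted p = 0.0202). Nos2, the nitric oxide synthase of classically activated macrophages, differed by 0.00 ± 0.15 (limma, adjusted p = 0.999), and was named after its value was seen. At 50 mg/kg, where 0 of the list passed, Arg1 differed by 1.69, Cd274 by 0.36, Stab1 by 0.15, Retnla by 0.12 and Nos2 by 0.03. Ccl24, Socs3 and Fn1 differed there by -0.32, -0.25 and -0.66. These genes, too, are named with their values known, and a contrast between activation states was not tested.

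**Figure D5:**
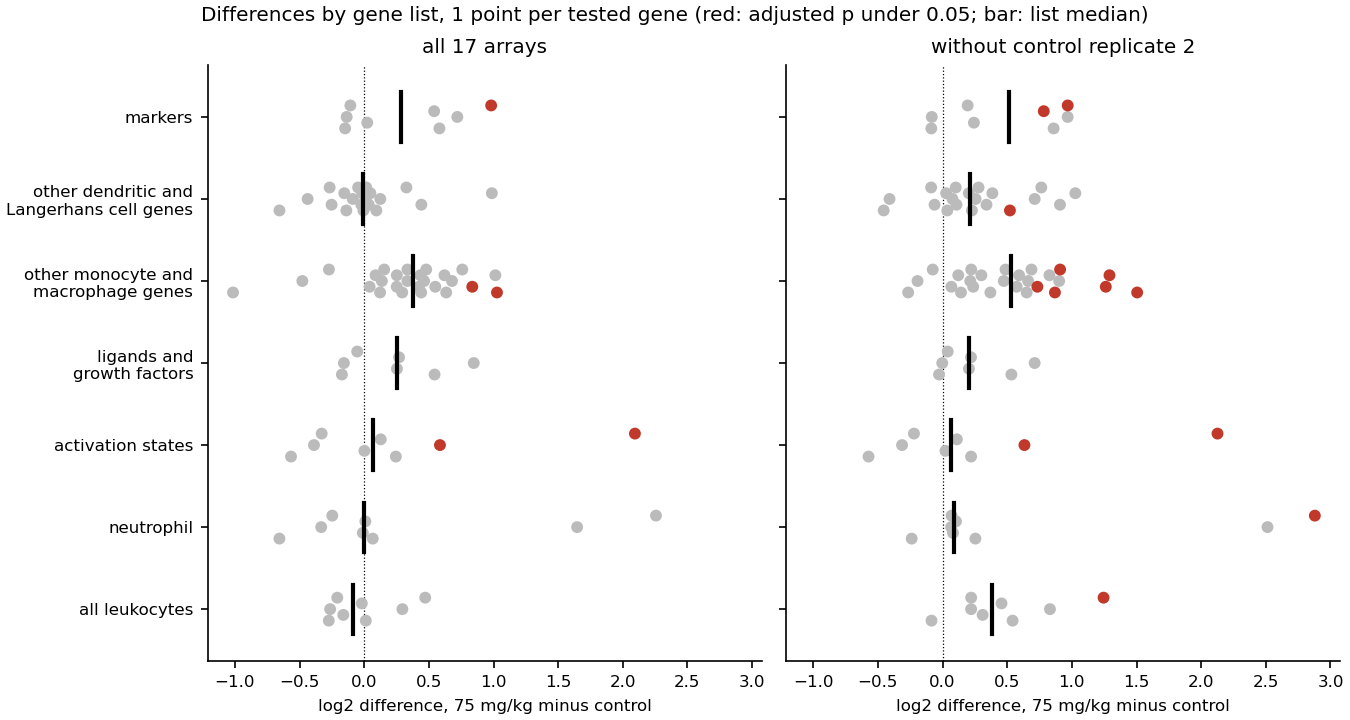
Log2 difference, 75 mg/kg minus control (horizontal axis), of each tested gene in 7 lists, with all arrays (left) and without control replicate 2 (right), where red points have an adjusted p under 0.05 in limma and the bar is the list median. The median of the other monocyte and macrophage genes is 0.38 with all arrays and 0.53 without that control, and that of the pan-leukocyte genes is -0.09 and 0.38.

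Neutrophil and pan-leukocyte genes were measured because these cells share Itgam and Lyz2 with macrophages. Of 13 neutrophil genes 8 were tested and 0 passed at any dose with all arrays. Their mean was 0.65 to 1.61 at 75 mg/kg, against 0.25 to 0.67 on 4 control arrays and 2.28 on control replicate 2. The median difference of the 8 genes at 75 mg/kg was -0.0009 with all arrays, with 4 of 8 positive, and 0.09 without that control. The array means thus do not stand for a rise of most genes of the list. S100a9, a calprotectin subunit of neutrophils that stressed keratinocytes also make, differed by 2.26 ± 0.65 with all arrays (limma, adjusted p = 0.148) and by 2.88 without that control (adjusted p = 0.00606). Mmp9, a gelatinase of neutrophil granules, differed by -0.25 ± 0.14 (limma, adjusted p = 0.603), and the neutrophil genes Ltf, Ngp, Retnlg and Mmp8 were not tested. The Mmp9 probe cleared background in 2 of 5 control mice and 1 of 4 at 75 mg/kg, so its level is uncertain. The part of neutrophils in the Lyz2 values was not tested.

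The 8 pan-leukocyte genes had 0 members that passed with all arrays and a median of -0.09 at 75 mg/kg. Cd53, a leukocyte tetraspanin, differed by -0.26 ± 0.18 (limma, adjusted p = 0.682), and its probe cleared background in 1 of 5 control mice and 2 of 4 at 75 mg/kg. Cd52, a small surface glycoprotein of leukocytes, differed by 0.47 ± 0.63 with all arrays and by 1.24 without control replicate 2 (limma, adjusted p = 0.863 and 0.0440). Without that array the median of the list was 0.38, and 1 of 8 passed, where 1.35% of all genes did, in the same fit in which Itgax and Adgre1 passed. How much of the Itgax and Adgre1 differences goes with all leukocytes was not tested.

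Within groups, Itgax, Adgre1 and Csf1r varied together from array to array, largely through control replicate 2. After each group's mean was subtracted, Pearson's r over 17 arrays was 0.85 between Itgax and Csf1r and 0.82 between Itgax and Adgre1, and 0.49 and 0.47 without control replicate 2. Adgre1 and Lyz2 had r = 0.73, and 0.68 without it, while Cd207 and Itgax had r = -0.01 and 0.06. Cd209a and Itgam ran opposite ways, with r = -0.82 and -0.85. The arrays share slides and animals' other differences, and these values are descriptions.

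The 5 named genes most like Lyz2 by that measure, among 13833 genes ranked, were Fcgr2b (r = 0.88), Emilin2 (0.86), Lyz1 (0.83), Dok2 (0.82) and Fcgr3 (0.78). Fcgr2b and Fcgr3 encode Fc receptors for IgG. Without the 2 arrays farthest from the Lyz2 median, replicate 7 at 25 mg/kg and control replicate 2, these values were 0.86, 0.79, 0.67, 0.78 and 0.73. The genes most like Cd207 were Atg4c, Urm1, Zfp869, Tasp1 and Zfp524, with r of 0.82 to 0.83, and 0.56 to 0.77 without the 2 arrays farthest from the Cd207 median, replicate 20 at 75 mg/kg and replicate 9 at 25 mg/kg. None of these 5 passed at 75 mg/kg, where their differences were -0.09 to 0.04 (limma, lowest adjusted p = 0.845).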

How the data were processed

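Each array's deposited scanner file came, per the file headers, from Feature Extraction 10.7.3.1. It holds spot and local background intensity in both channels and other columns that flag spots. The authors also deposited a series table of log2 values, whose scale is not given in the sources used here. Against the arrays it followed the log2 ratio of tissue over mixture, loess-normalized with background kept (r 0.998 to 0.999, column medians -0.03 to -0.02).

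Median intensities were corrected with normexp (offset 50) and normalized by loess, leaving out control spots. Spots flagged as outliers took part in the loess and were removed after it. The 27577 probes that cleared background in the tissue channel on 4 or more arrays gave 21384 genes, 1 probe each, the brightest. Names came from the RefSeq table of GRCm38.p6 by transcript. Group means of all 17 arrays were fitted with limma 3.58.1 in R 4.3.3 (two-sided, Benjamini-Hochberg over all genes, threshold 0.05), and the code was tested on simulated data. The replicates are biological per the labels. Members and lists were chosen with earlier results of these data known. Named besides the 10 markers are list genes that pass at any dose, or else the 2 with the smallest p at 75 mg/kg, and the 5 genes most like Cd207 and Lyz2 by r. Of the list genes that passed, 1 is not reported here, though the counts hold it. Further lists of T cells, B cells, mast cells, eosinophils and stromal cells were measured only as markers of other cells: of these 0 genes passed at 75 mg/kg, and 0 of 4 eosinophil genes were tested.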

Additional observations from a re-analysis of the deposited data

Results flagged for a closer look

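In each group of 4 or 5 arrays, the gap of the outermost array to its neighbour was set against the group's range. Of 116 groups so examined, 12 were past the limit used, where chance puts about 5%. Genes and list means were read on the same arrays, and the marker mean holds the marker genes, so the groups are not independent. The 12 are therefore not weighed against that 5%.

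Control replicate 2 stood apart in Itgax (1.36, next control -0.46), Csf1r (1.17, next -0.40), the mean of the 8 tested markers (1.32, next 0.63) and the means of other dendritic and Langerhans cell genes (0.96), other monocyte and macrophage genes (1.11), neutrophil genes (2.28), pan-leukocyte genes (0.34) and B and plasma cell genes (1.33). The part of any 1 cell type in these values was not tested.

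At 50 mg/kg, replicate 15 was high in Cd209a (2.51, next 1.34), and replicate 12 in squamous epithelium (4.17). At 75 mg/kg, replicate 19 was high in Csf1r (0.18, next -0.47), and replicate 20 low in pan-leukocyte genes (-1.95, next -1.53).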

How the results depend on the processing

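Cd207, Itgax, Adgre1 and Lyz2 kept a positive difference at 75 mg/kg in all alternatives run, with ranges of 0.73 to 3.61, 0.46 to 1.67, 0.37 to 0.78 and 0.60 to 0.87. The number of the 8 markers that passed was 1 at 75 mg/kg and for the slope and 0 elsewhere. At 75 mg/kg it was 0 with array weights, with median centring only, with no filter on dim probes and in the fit of only the 2 groups compared, 4 with slide as a block and without control replicate 2, and 0 to 2 without single arrays. For the slope it was 2 in Cy5 alone and with slide as a random block, 3 with array weights, alone or with slide as a block, 0 with median centring, 4 with slide as a block and without control replicate 2, and 0 to 4 without single arrays. At 50 mg/kg it was 1 with array weights (Lyz2), 2 with slide as a block and without control replicate 2, and 0 to 1 without single arrays. The alternatives that join slide with another choice were chosen after seeing the data. Nothing is read from the part of Cd207 in these counts.

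Signs turned for genes near 0 at 75 mg/kg. Cd209a was 0.64 with Agilent's processed signals. Csf1r was 0.012 with array weights and slide as a block, 0.23 with median centring, and 0.19 without control replicate 2, with or without slide as a block, and ran from -0.32 to 0.19 over the fits without single arrays. Itgam was 0.27 with median centring, which put the median of all genes at 0.19. Mrc1 was -0.011 in Cy5 alone and -0.15 to 0.24 without single arrays. The causes were not tested.

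Over all genes, 236 passed at 75 mg/kg (191 higher), 424 with slide as a block, 145 with median centring (142 higher) and 119 to 289 without single arrays. For the slope 288 passed, 549 with slide as a block and 172 with median centring. The levels of probes near background, Cd207 in control among them, are uncertain. No paired analysis was possible because the groups share no replicate numbers.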
